A study of Mus musculus with 20 samples.

Results

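NKX2-1 is a homeodomain transcription factor that specifies the medial ganglionic eminence (MGE), the ventral forebrain territory that gives rise to cortical and striatal interneurons and to cholinergic neurons. This account concerns NKX2-1 peaks on chromatin with trimethylated histone H3 lysine 4 (H3K4me3) and without a called LHX6 peak. LHX6 is a LIM homeodomain factor that acts downstream of NKX2-1. Peaks were chosen by measured values, the deposited peak lists: one was taken where the NKX2-1 list overlapped no LHX6 peak and overlapped a wild-type H3K4me3 region by at least 1 base, on chromosomes 1 to 19 and X. Of 5683 NKX2-1 peaks, 3051 met this rule, 53.7% (exact 95% interval 52.4 to 55.0). They were divided by the distance of the peak to the nearest transcription start site (TSS) of a protein-coding transcript. 1380 lay within 2.5 kb of a TSS and are called promoter-proximal, and 1671 lay farther away and are called distal. At the edge of the rule, 28 chosen peaks were covered by under 50 bases of H3K4me3, the least by 3, and 25 peaks left out lay within 100 bases of a region, the closest at 2. The farthest promoter-proximal peak lay 2499 bases from a TSS and the closest distal peak 2501. The remaining NKX2-1 peaks were 1598 without an LHX6 peak and without H3K4me3, 425 shared with LHX6 with H3K4me3 and 609 shared without it.

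All tissue came from mouse embryos at embryonic day 13.5. Histone marks were precipitated from MGE of C57BL/6 embryos, either conditional Nkx2-1 knockouts (Nkx2-1cKO, called the mutant) or wild type, and NKX2-1 and LHX6 from wild-type basal ganglia of CD-1 embryos, a broader dissection in another strain. The Cre line of the mutant is not given in the sources used here. With 1 library for every antibody and genotype there is no replicate spread and no test between genotypes, and every interval printed is an exact 95% Clopper-Pearson interval that covers counting error only. In a dissected tissue, fewer cells carrying a mark and less of it per cell cannot be told apart.

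H3K4me3 marks active and poised promoters and is weak or absent at most enhancers. Acetylation of histone H3 lysine 27 (H3K27ac) marks active promoters and enhancers, monomethylation of lysine 4 (H3K4me1) surrounds enhancers and the edges of promoters, and trimethylation of lysine 27 (H3K27me3) is laid down by Polycomb complexes at silent genes. Factors of the NK2 family, to which NKX2-1 belongs, recognise short DNA words that contain CACTTGA or CACTCAA, called NK2 cores here.

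The libraries held 26.8 to 89.1 M tags after the authors' removal of duplicates, with 89.1 M for NKX2-1 and 50.7 M for LHX6. The LHX6 list held 1651 regions, and a site without a peak in it may still be bound by LHX6. The mutant lists covered more of the genome than the wild-type lists for each mark, with 57.4 Mb against 47.0 Mb for H3K4me3 and 63.7 Mb against 57.0 Mb for H3K27ac. The MGE markers Nkx2-1, Lhx6, Dlx1 and Dlx2 carried H3K4me3 and H3K27ac over a TSS in mutant and wild type. The 4 pallial markers Emx1, Tbr1, Neurod6 and Neurog2 had no H3K27ac there in either genotype, nor had the 3 microglial and the 3 endothelial and blood markers, whereas the striatal markers Meis2, Ebf1 and Foxp1 of the neighbouring lateral eminence carried it in both. At the targeted gene, H3K4me3 and H3K27ac remained over the Nkx2-1 TSS in the mutant.

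The DNA under 5 promoter-proximal summits shows what the peaks looked like where an NK2 core was present. Each sequence is the plus strand of 200 bases centred on the NKX2-1 summit, on build NCBIM37 (mm9), with NK2 cores of either strand in capitals. Abcf1 had the strongest core-bearing summit that could be shown without an exon, Epha4 is an ephrin receptor gene of migrating interneurons, Mfsd2a and Usp15 differed between mutant and wild type, and the last window lies at Nkx2-1 itself.
Abcf1, chr17:36106738-36106937: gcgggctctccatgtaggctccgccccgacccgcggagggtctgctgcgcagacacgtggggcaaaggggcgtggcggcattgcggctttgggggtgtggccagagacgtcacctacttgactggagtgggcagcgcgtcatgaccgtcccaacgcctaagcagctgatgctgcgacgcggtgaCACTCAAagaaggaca
Epha4, chr1:77512857-77513056: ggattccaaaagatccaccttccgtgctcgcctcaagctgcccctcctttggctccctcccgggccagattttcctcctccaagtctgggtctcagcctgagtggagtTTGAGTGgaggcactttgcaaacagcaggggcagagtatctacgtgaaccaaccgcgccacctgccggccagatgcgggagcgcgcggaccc
Mfsd2a, chr4:122637707-122637906: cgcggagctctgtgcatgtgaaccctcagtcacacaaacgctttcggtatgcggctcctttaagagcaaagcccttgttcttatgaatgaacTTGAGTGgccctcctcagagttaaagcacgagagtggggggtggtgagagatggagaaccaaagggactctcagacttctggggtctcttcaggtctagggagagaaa
Usp15, chr10:122632668-122632867: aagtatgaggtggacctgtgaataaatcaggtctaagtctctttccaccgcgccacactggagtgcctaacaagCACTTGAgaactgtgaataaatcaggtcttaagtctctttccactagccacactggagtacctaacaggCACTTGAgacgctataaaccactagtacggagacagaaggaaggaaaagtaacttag
Nkx2-1, chr12:57636104-57636303: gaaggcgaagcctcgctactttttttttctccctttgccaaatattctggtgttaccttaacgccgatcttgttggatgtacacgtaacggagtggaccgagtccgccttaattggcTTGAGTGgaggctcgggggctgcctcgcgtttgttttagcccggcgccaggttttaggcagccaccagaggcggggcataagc
The Abcf1 window lies just upstream of a TSS with its core toward one edge, 84 bases from the summit. At Epha4 and Mfsd2a the first base of the core as printed lay 8 bases from the summit, on opposite sides. The Usp15 window, in an intron of that gene, held 2 copies of CACTTGA.

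The distal windows follow, again with cores in capitals. Cdc42ep4 and Slc4a3 are the genes nearest to 2 of the strongest peaks, the peak in Parva lost H3K27ac in the mutant, and the peaks near Lhx8 and Ptch1 belong to MGE and Sonic hedgehog genes.
Cdc42ep4, chr11:113647238-113647437: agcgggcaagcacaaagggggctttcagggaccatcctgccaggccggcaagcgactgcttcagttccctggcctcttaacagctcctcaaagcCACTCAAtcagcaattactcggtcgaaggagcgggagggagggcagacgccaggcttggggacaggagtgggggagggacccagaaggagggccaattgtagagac
Slc4a3, chr1:76487929-76488128: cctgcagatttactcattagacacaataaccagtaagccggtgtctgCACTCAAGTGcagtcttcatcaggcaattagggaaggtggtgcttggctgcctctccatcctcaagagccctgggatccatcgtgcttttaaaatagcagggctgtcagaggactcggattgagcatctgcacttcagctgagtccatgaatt
Parva, chr7:119646068-119646267: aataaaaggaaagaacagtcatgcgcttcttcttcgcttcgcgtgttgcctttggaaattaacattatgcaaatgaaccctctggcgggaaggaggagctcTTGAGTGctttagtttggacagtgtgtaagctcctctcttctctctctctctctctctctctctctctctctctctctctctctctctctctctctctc
Lhx8, chr3:154044626-154044825: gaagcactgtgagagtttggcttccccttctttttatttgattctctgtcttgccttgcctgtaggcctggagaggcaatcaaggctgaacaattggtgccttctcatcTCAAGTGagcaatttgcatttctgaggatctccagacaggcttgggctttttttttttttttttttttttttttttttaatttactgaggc
Ptch1, chr13:63655958-63656157: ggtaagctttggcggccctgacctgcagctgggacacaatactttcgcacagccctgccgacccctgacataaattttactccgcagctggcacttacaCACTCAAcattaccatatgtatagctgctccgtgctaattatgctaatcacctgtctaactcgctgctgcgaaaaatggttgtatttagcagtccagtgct
At Cdc42ep4, Parva, Lhx8 and Ptch1 the first base of the core as printed lay within 9 bases of the NKX2-1 summit. The Slc4a3 window held 2 overlapping cores that start 53 and 50 bases before the summit. The first window is intronic in Sdk2, a synaptic adhesion gene, the Parva and Ptch1 windows are intronic in those genes, and the Slc4a3 and Lhx8 windows lie between genes. Here and throughout, a distal peak is named after the gene with the nearest TSS, which is a position and not a shown target.

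NK2 cores were more frequent at the summits than beside them. In the 200 bases centred on the summit a core was present at 195 of 1380 promoter-proximal peaks, 14.1% (12.3 to 16.1), against 4.78% of windows of the same length 1 kb to either side. At TSSs that carry wild-type H3K4me3 and no NKX2-1 peak, windows at the same offset held one in 2.26%. Distal peaks held a core in 21.6% (19.7 to 23.7), their sides in 4.76%, and summits of distal H3K4me3 regions without an NKX2-1 peak in 4.44%. NKX2-1-only peaks without H3K4me3 held one in 32.7% (30.4 to 35.1), a higher share than either set with H3K4me3. Most peaks on H3K4me3 therefore had neither word in their window, which says only that these letters are not there. Over all protein-coding TSSs, 3.79% of the 200 bases upstream held a core.

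**Figure D1:**
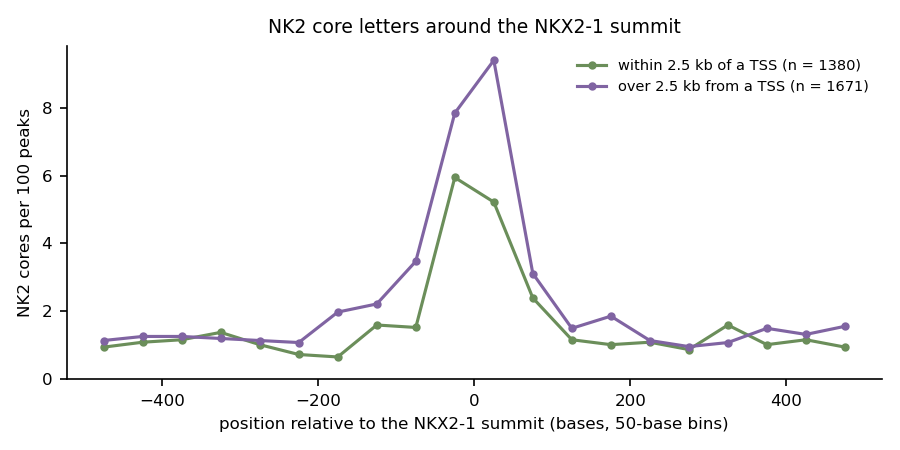
NK2 cores (CACTTGA or CACTCAA, either strand) per 100 peaks in 50-base bins (vertical axis) by distance of the core from the NKX2-1 summit in bases (horizontal axis), for promoter-proximal and distal peaks. Both curves peak within 50 bases of the summit, at 5.94 per 100 promoter-proximal peaks and 9.40 per 100 distal peaks.

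The share with a core was higher among stronger NKX2-1 peaks. The authors' −log10 p of the summit, from their peak caller, was used to order peaks within this list. Among promoter-proximal peaks, 7.87% (5.25 to 11.2) of the weakest quartile and 23.2% of the strongest (19 to 27.9) held a core. Among distal peaks the shares were 16.7% (13 to 21) in the weakest and 28.2% (24 to 32.8) in the strongest.

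Other words were counted in the same windows. CCAAT, the word bound by the NF-Y complex of promoters, occurred in 43.2% (40.6 to 45.9) of promoter-proximal windows, against 26.9% at same-offset TSSs without an NKX2-1 peak. GGGCGG, bound by SP family factors, occurred in 45.4% against 57.1% at those TSSs, but in 9.89% of windows beside the peaks and 23.0% of summits of promoter-proximal H3K4me3 regions without an NKX2-1 peak. CCGGAAG, an ETS family word, was found in 13.7% (11.9 to 15.6) against 12.5% at those TSSs, a difference within counting error, and in 1.38% beside the peaks. Distal windows held CAGCTG, an E-box of basic helix-loop-helix factors, in 31.1% (28.9 to 33.4), against 9.99% beside the peaks and 15.1% at summits of distal H3K4me3 regions without an NKX2-1 peak. TAATTA or TAATGA, words of LIM and other homeodomain factors, occurred in 32.3% of distal windows, against 15.1% beside them and 15.7% at summits of distal H3K4me3 regions without an NKX2-1 peak. The same words were present in 42.1% of windows shared with LHX6 on H3K4me3 and in 32.4% at NKX2-1-only peaks without H3K4me3. CAGCTG occurred in 27.6% (25.4 to 29.9) of windows at NKX2-1-only peaks without H3K4me3. Both shares are thus mostly common to NKX2-1-only peaks with and without H3K4me3. A base composition typical of CpG islands, an observed to expected CpG ratio of at least 0.6, was found in 67.3% of promoter-proximal and 9.93% of distal windows, with medians of 0.716 and 0.302. It was found in 69.7% of same-offset TSSs without an NKX2-1 peak. At summits of H3K4me3 regions without an NKX2-1 peak the shares were 50.5% promoter-proximal and 24.9% distal, and beside the peaks 17.0% and 3.41%. CACTTNA, which includes CACTTGA, was found in 10.1% of promoter-proximal windows, in 11.1% of their sides and in 4.96% of same-offset TSSs without an NKX2-1 peak, and in 23.6% of distal windows against 9.99% of their sides.

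Promoter-proximal peaks sat close to the TSS and mostly just upstream of it. The summit lay within 250 bases of the nearest TSS at 979 of 1380 peaks (70.9%, 68.5 to 73.3), and upstream of it at 1002 (72.6%). The median summit was 71 bases upstream. At 863 peaks (62.5%) the TSS lay inside the peak. An opposite TSS within 1 kb, as at divergent promoters, was present for 15.4% (13.5 to 17.4) of the peaks, against 14.3% of TSSs with H3K4me3 and no NKX2-1 peak within 2.5 kb. Counted at the nearest TSS of each promoter-proximal H3K4me3 region without an NKX2-1 peak, which is closer to how the peaks were counted, the share was 7.52% (7.11 to 7.95), so the comparison depends on which of these is used.

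**Figure D2:**
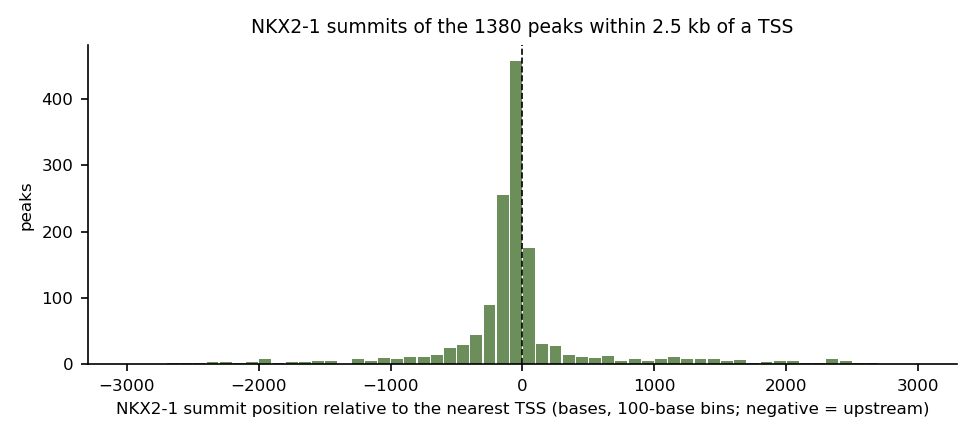
Number of promoter-proximal NKX2-1 peaks (vertical axis) in 100-base bins of the summit position relative to the nearest TSS in bases (horizontal axis, negative values upstream, dashed line at the TSS). The highest bin, from 100 bases upstream to the TSS, holds 458 of the 1380 peaks.

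Distal peaks were spread over a wide range. The median distance to a TSS was 46.8 kb, 472 peaks (28.2%) lay beyond 100 kb, and 121 (7.24%) within 5 kb. The summit was inside a protein-coding gene with the peak on no exon at 672 (40.2%) and between genes at 885 (53.0%). An annotated exon was touched by 114 (6.82%). The TSS of some annotated transcript, coding or not, lay within 2.5 kb of 126 (7.54%), so most distal peaks lay farther than that from any annotated start.

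The H3K4me3 regions that held the peaks differed in size between the sets. Promoter-proximal peaks lay in regions with a median length of 2417 bases, and these regions ranked at the median on the 86.9th percentile of the wild-type list by −log10 p. Distal peaks lay in regions of 835 bases at the median, on the 36.5th percentile. By the authors' fold enrichment the medians were 31.9 and 8.24, against 26.8 and 7.01 for promoter-proximal and distal regions without an NKX2-1 peak. Median lengths of those regions were 1749 and 584 bases. Wild-type H3K4me3 was part of the choice, so these values only describe it.

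H3K27ac and H3K4me1 differed more between promoter-proximal and distal peaks than between mutant and wild type, whereas H3K27me3 differed at least as much by genotype at distal peaks. H3K4me3 cannot be compared in this way, because its wild-type regions chose the peaks. H3K27ac overlapped 97.5% (96.6 to 98.3) of promoter-proximal peaks in the mutant and 97.4% (96.4 to 98.2) in wild type. H3K4me1 overlapped 52.5% in the mutant and 55.7% in wild type, and H3K27me3 4.20% (3.21 to 5.40) and 2.61% (1.83 to 3.59) in the same order. Of the distal peaks, 89.5% (88.0 to 91.0) carried H3K27ac in the mutant and 92.7% (91.3 to 93.9) in wild type, while H3K4me1 covered 96.4% and 96.8%. H3K27me3 was on 5.92% (4.84 to 7.17) of distal peaks in the mutant and on 3.53% (2.70 to 4.53) in wild type. In wild type, 1471 distal peaks (88.0%) carried H3K4me3, H3K27ac and H3K4me1 together. Among promoter-proximal peaks, 727 (52.7%) carried these 3 marks and 593 (43.0%) H3K4me3 and H3K27ac alone.

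**Figure D3:**
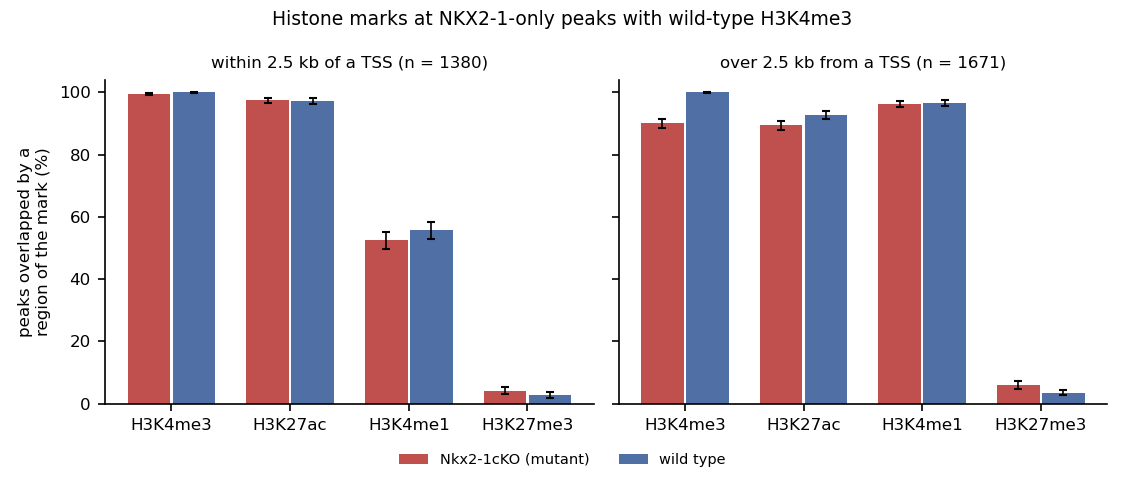
Percent of NKX2-1-only peaks with wild-type H3K4me3 that are overlapped by a region of each mark (vertical axis) in the mutant and in wild type, for promoter-proximal peaks on the left and distal peaks on the right. Error bars are exact 95% intervals of counting error for 1 library per bar. Wild-type H3K4me3 is 100% by the choice of peaks, and 90.2% of the distal peaks carry it in the mutant.

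H3K4me3 was absent in the mutant from 5 promoter-proximal and 164 distal peaks. A mark counts as lost where wild type has a region on the peak and the mutant has none, and as gained in the reverse case; because wild-type H3K4me3 chose the peaks it could only be lost. Over the whole list, 3.65% of wild-type H3K4me3 regions had no mutant counterpart. The shares at peaks were 0.362% (0.118 to 0.843) promoter-proximal and 9.81% (8.43 to 11.3) distal. For NKX2-1 peaks shared with LHX6 on H3K4me3, which were not divided by distance to a TSS, the share was 18.8% (15.2 to 22.9).

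Counted by H3K4me3 region instead of by peak, the share lost was higher for distal regions with such a peak than for distal regions without NKX2-1, and the 2 intervals did not overlap. The mutant lacked 164 of 1657 regions with a peak, 9.90% (8.50 to 11.4), and 855 of 15937 regions without one, 5.36% (5.02 to 5.73). Within 2.5 kb of a TSS it lacked 6 of 1417, 0.423% (0.156 to 0.919), against 149 of 15199, 0.98% (0.83 to 1.15). All of these losses fell in the 2 weaker quartiles of the list when the regions were divided by their wild-type −log10 p. In the weakest quartile of the wild-type list, with −log10 p up to 16.5, 25.5% (21.9 to 29.4) of distal regions with a peak were lost, against 12.4% (11.6 to 13.2) of those without. In the second quartile the shares were 3.52% (2.31 to 5.11) and 1.07% (0.825 to 1.36). In the third quartile 0 of 306 were lost with a peak and 0 of 3017 without, and in the strongest 0 of 71 and 0 of 550. Regions with a peak were somewhat longer within a quartile, with medians of 415 and 358 bases in the weakest and 847 and 655 in the second. Near a TSS the weakest quartile held 25 regions with a peak, of which 6 were lost, against 133 of 1473 without. These shares, 24% (9.36 to 45.1) and 9.03% (7.61 to 10.6), have overlapping intervals and run opposite to the shares over all quartiles. In the strongest quartile 0 of 1096 promoter-proximal regions with a peak were lost. With the mutant list cut to the −log10 p at which it covers the same length as the wild-type list, distal losses were 49.8% (47.4 to 52.2) with a peak and 41.7% (41.0 to 42.5) without, and promoter-proximal losses 1.69% and 8.13%, so the level of loss depends on where the mutant list is cut. What part NKX2-1 binding has in these differences was not tested.

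**Figure D4:**
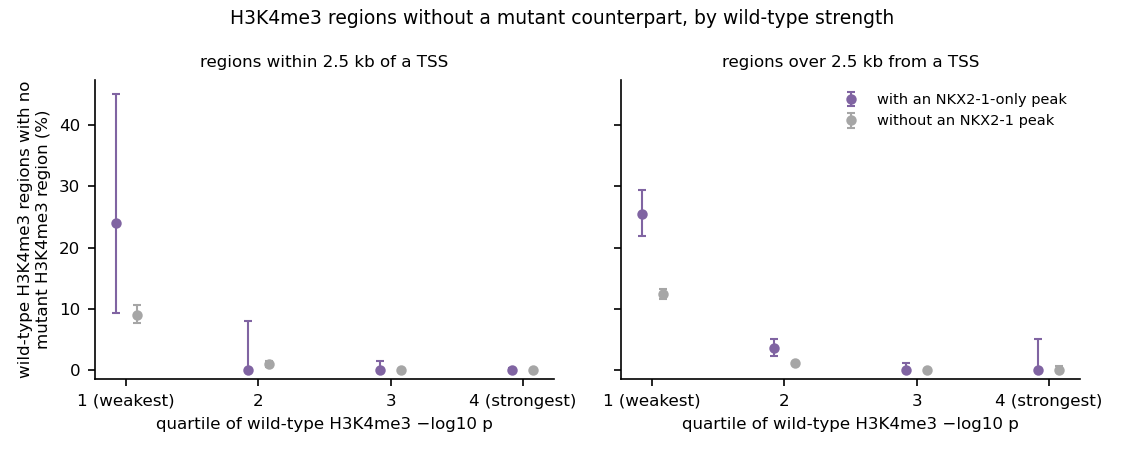
Percent of wild-type H3K4me3 regions with no overlapping mutant region (vertical axis) by quartile of wild-type −log10 p (horizontal axis), for regions with an NKX2-1-only peak and regions without any NKX2-1 peak, within 2.5 kb of a TSS on the left and farther away on the right. Error bars are exact 95% intervals of counting error. Distal regions with a peak lie above those without in the 2 weaker quartiles, 25.5% against 12.4% and 3.52% against 1.07%.

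The 164 distal peaks that lost H3K4me3 mostly carried H3K4me1 in the mutant, while fewer carried H3K27ac there than in wild type. H3K4me1 was on 148 of them in the mutant (90.2%) and H3K27ac on 91 (55.5%), against 161 (98.2%) and 142 (86.6%) in wild type. At the 1507 distal peaks that kept H3K4me3, H3K4me1 was on 97.1% in the mutant and 96.6% in wild type, and H3K27ac on 93.2% and 93.4%. The H3K4me3 regions of the 164 peaks had a median length of 366 bases, against 898 at the 1507. The median −log10 p of their NKX2-1 peaks was 18.7, against 16.6. By quartile of NKX2-1 −log10 p the loss was 12% in the strongest (9.01 to 15.5) and 8.36% (5.71 to 11.7) in the weakest, with overlapping intervals. Distal peaks with an NK2 core lost H3K4me3 in 12.7% (9.48 to 16.6) and those without one in 9.01% (7.51 to 10.7), again with overlapping intervals.

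Several of the strongest distal peaks were among those that lost H3K4me3. Near Mab21l2, in the gene Lrba on chr3:86504878-86505576, the NKX2-1 −log10 p was 97.3, H3K4me3 covered 0 bases within 1 kb of the summit (called the window) in the mutant and 253 in wild type, and H3K27me3 covered 1435 and 304. Near Sash1 (chr10:8718541-8719017) the mutant had no H3K4me3 and no H3K27ac within 1 kb, against 271 and 1217 bases in wild type, and H3K4me1 covered 483 and 1673 bases. The intronic peak in Vgll4, which encodes a cofactor of TEAD factors, had no H3K4me3 or H3K27ac within 1 kb in the mutant, against 287 and 860 bases in wild type. Near Trit1, a tRNA modification enzyme, H3K4me3 covered 0 and 363 bases while H3K27ac covered the whole window in both genotypes. Of the 5 promoter-proximal peaks that lost H3K4me3, Isoc1, Gm12830, Obfc1, Igfbp7 and Gm15698, each lay at least 874 bases from the TSS in an H3K4me3 region of at most 659 bases.

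H3K27ac was lost from few promoter-proximal peaks and from a moderate number of distal ones. It was absent in the mutant from 7 of 1344 promoter-proximal peaks that carried it in wild type, 0.521% (0.210 to 1.07), and from 100 of 1549 distal peaks, 6.46% (5.28 to 7.80). Over the whole list, 19.4% of wild-type H3K27ac regions had no mutant counterpart. Among H3K4me3 regions without an NKX2-1 peak the shares were 1.35% within 2.5 kb of a TSS and 5.62% farther away. By region the distal share with a peak was 5.87% (4.75 to 7.16), which lies within counting error of 5.62%. NKX2-1-only peaks without H3K4me3, at any distance from a TSS, lost H3K27ac at 34.9% (31.3 to 38.6), with an interval well above both.

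Covered length gave a finer measure than presence. Within 1 kb of the summit, H3K27ac covered at least 500 bases less in the mutant at 201 distal peaks (12%) and at least 500 bases more at 67 (4.01%). For distal H3K4me3 regions without an NKX2-1 peak the shares were 4.96% shorter and 9.25% longer, around their own summits. These regions had less H3K27ac in wild type, 742 bases at the median against 1636 at the distal peaks, and the part of that in the shares was not tested. NKX2-1-only peaks without H3K4me3, at any distance from a TSS, had shorter H3K27ac at 16.1% and longer at 3.07%. For peaks shared with LHX6 on H3K4me3 the shares were 14.1% and 1.41%, so this direction was not particular to the chosen peaks. H3K4me1 was shorter by at least 500 bases at 101 distal peaks (6.04%) and longer at 18 (1.08%), against 2.94% and 4.29% of the regions without a peak. In the same 2 other sets of NKX2-1 peaks it was shorter at 17.5% and 6.35% and longer at 1.44% and 2.35%. H3K4me3 was shorter at 74 distal peaks (4.43%) and longer at 82 (4.91%), against 1.56% and 9.73% of the regions without a peak. For these marks too the median wild-type cover was higher at the peaks, 1593 against 1085 bases for H3K4me1 and 902 against 681 for H3K4me3. This limits how much longer they could become, and its part in the shares was not tested. Median H3K27ac cover at distal peaks was 1542 bases in the mutant and 1636 in wild type, and median H3K4me3 cover 1001 and 902. At promoter-proximal peaks, H3K27ac was shorter at 10 and longer at 11 of 1380, against 0.868% and 4.14% of promoter-proximal regions without a peak, and its median cover was 1630.5 bases in the mutant and 1589.5 in wild type. The mutant lists cover more of the genome as a whole; with the mutant H3K27ac list cut to the length of the wild-type list, H3K27ac was shorter at 13.9% of distal peaks.

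The 7 promoter-proximal losses of H3K27ac included a peak at Lhx6, the LIM homeobox gene of MGE-derived interneurons. H3K27ac remained over a TSS of Lhx6 in the mutant, so the loss concerns this peak and not every TSS of the gene. The peak shared rank 895 by NKX2-1 −log10 p among the 1380 promoter-proximal peaks. On chr2:35961017-35961275, 89 bases from a TSS, it had 270 bases of H3K27ac within 1 kb of the summit in the mutant and the whole window in wild type. H3K4me3 there covered 1512 bases in the mutant and the whole window in wild type, and H3K27me3 the whole window and 1733 bases. At Gm12830 H3K27ac covered 0 bases in the mutant and the whole window in wild type, and at 9030418K01Rik 0 and 639. Usp15, a deubiquitinase gene, had 795 bases in the mutant and 1049 in wild type around its intronic peak. Rcan2, a calcineurin regulator gene, had 822 and 925, and Nkiras2, a Ras-like regulator of NF-kB, 515 and 1198. Rasgef1a, which encodes a Ras exchange factor, had 347 bases of H3K27ac in the mutant and 1065 in wild type, and 1163 and 0 bases of H3K27me3. At Usp15 and Rcan2 the covered lengths were close, so at these 2 the mark was missing over the peak but present beside it.

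Among distal peaks the strongest that lost H3K27ac lay near Tmem55a inside Necab1, a gene for a neuronal calcium-binding protein. H3K27ac covered 0 bases within 1 kb in the mutant and 1337 in wild type there, H3K4me1 660 and 1934, and H3K4me3 502 and 555. Near Brd1, on chr15:88210431-88210884 between genes, H3K27ac covered 447 bases in the mutant and the whole window in wild type, and H3K4me3 0 and 911. A peak 57.8 kb from Nfia, a nuclear factor I gene of neural progenitors, had 0 and 780 bases of H3K27ac. At Gpc6, a glypican gene, they were 0 and 980. The intronic Parva peak kept 1062 bases in the mutant against 1433 in wild type.

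H3K27ac was gained at 9 of 36 promoter-proximal and 47 of 122 distal peaks that lacked it in wild type, 25% (12.1 to 42.2) promoter-proximal and 38.5% (29.9 to 47.8) distal. Over the whole mutant list 29.6% of H3K27ac regions had no wild-type counterpart, a share of marked regions and not of sites that lacked the mark. Among H3K4me3 regions without an NKX2-1 peak and without wild-type H3K27ac the shares gained were 19% promoter-proximal and 26.5% distal. Regions with a peak, counted the same way, gained it at 4 of 20 promoter-proximal (20%, 5.73 to 43.7) and 41 of 107 distal (38.3%, 29.1 to 48.2). Near Tle4, a Groucho corepressor gene, H3K27ac covered 926 bases in the mutant and 0 in wild type. At Boc, a Sonic hedgehog co-receptor gene, it covered 948 and 277, and H3K27me3 307 and 1337. The peak near Tmco5 had 1695 and 0, and the peak near Ccl1, the fifth of the distal peaks in NKX2-1 strength, 616 and 0. Promoter-proximal gains included Fancc (708 and 0), Ninl (1147 and 759) and Prmt5, an arginine methyltransferase gene (1719 and 787).

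H3K4me1 was lost at 91 of 769 promoter-proximal peaks, 11.8% (9.64 to 14.3), and at 29 of 1617 distal ones, 1.79% (1.2 to 2.57). Over the whole list 15.2% of wild-type H3K4me1 regions had no mutant counterpart. Counted by H3K4me3 region, 0.865% of promoter-proximal regions with a peak and 1.16% of distal ones lost H3K4me1, against 2.52% and 3.25% of those without an NKX2-1 peak. If a mutant region within 1 kb counts as present, the promoter-proximal share is 0.260%. H3K4me1 was gained at 46 of 611 promoter-proximal and 23 of 54 distal peaks that lacked it in wild type. Of all mutant H3K4me1 regions 23.8% had no wild-type counterpart, a share of marked regions and not of sites that lacked the mark. Counted by H3K4me3 region it was gained at 10 of 29 promoter-proximal regions with a peak, 34.5% (17.9 to 54.3), and at 10 of 23 distal ones, 43.5% (23.2 to 65.5), against 24.1% and 28.4% of regions without an NKX2-1 peak, which lie inside these intervals. The change most often seen at promoter-proximal peaks was H3K4me1 lost with H3K4me3 and H3K27ac kept, at 85 peaks (6.16%). The reverse was seen at 43 (3.12%).

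H3K27me3 was gained at few peaks. It was gained at 22 of 1344 promoter-proximal peaks without it in wild type, 1.64% (1.03 to 2.47), and at 48 of 1612 distal ones, 2.98% (2.20 to 3.93). For H3K4me3 regions without an NKX2-1 peak the shares were 6% and 5.03%, counted by region. Of all mutant H3K27me3 regions, 46.6% had no wild-type counterpart. That share is taken over regions with the mark in the mutant, not over sites without it in wild type, so it cannot be set against the others. Counting a wild-type region within 1 kb as present brings the gains at peaks to 0.372% and 1.05%. By region, 2.96% (2.1 to 4.04) of promoter-proximal and 3.76% (2.88 to 4.83) of distal H3K4me3 regions with a peak gained it. Both lie below the shares without a peak, but the distal interval overlaps that without, 4.66 to 5.41. In wild type H3K27me3 was on 9.39% of promoter-proximal and 5.37% of distal regions with a peak, against 28.6% and 15.0% without. The part of that in the gains was not tested. Mfsd2a, a lipid transporter gene, had 706 bases of H3K27me3 within 1 kb of its peak in the mutant and 486 in wild type, with H3K4me3 over the whole window in both. In Notch1, the Notch receptor gene, H3K27me3 covered 840 and 266 bases, and at the Sox6 peak, nearest to the TSS of 1110006G14Rik, 1558 and 659. Distal gains included the peaks at Arid1b, a gene of the SWI/SNF remodelling complex (1139 and 498), Etv5, an ETS factor gene (1242 and 678) and Sox2, a progenitor factor gene (675 and 0).

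H3K27me3 was lost from 8 of 59 distal peaks, 13.6% (6.04 to 25), and from 0 of 36 promoter-proximal peaks, against 15.7% of all wild-type H3K27me3 regions. Counted by H3K4me3 region, the mutant lacked it at 7 of 89 distal regions with a peak, 7.87% (3.22 to 15.5), and at 4 of 133 promoter-proximal ones, 3.01% (0.825 to 7.52), against 5.87% of distal and 1.98% of promoter-proximal regions without an NKX2-1 peak, which lie inside both intervals. The distal 8 lay nearest to Slc39a11, Basp1, Boc, Parp1, Pknox1, Nkx2-1, Prdm16 and Lmo1. At Basp1, a growth cone protein gene, H3K27me3 covered 0 bases in the mutant and 366 in wild type while H3K27ac covered 1242 and 0. At Prdm16, a zinc finger gene of neural stem cells, H3K27me3 covered 0 and 818 and at Lmo1 167 and 931. The Nkx2-1 peak of this set, on chr12:57630395-57630742 and 7.15 kb from the TSS, had no mutant region of any of the 4 marks, and within 1 kb the mutant had 689 bases of H3K4me3 and 624 of H3K27ac, against the whole window in wild type. Its place relative to the deleted sequence is not known from the sources used here.

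Genes of general cell function were among those at promoter-proximal peaks, mostly at shares near that of all genes with H3K4me3. In all, 1599 genes had such a peak within 2.5 kb of a TSS, which is 11.1% of the 14420 genes with wild-type H3K4me3 there. Genes for ribosomal proteins reached 15 of 80 (18.8%, 10.9 to 29.0), proteasome subunits 7 of 37 (18.9%, 7.96 to 35.2), translation factors 11 of 63 (17.5%), mitochondrial ribosomal proteins 12 of 73 (16.4%) and zinc finger genes with Zfp symbols 45 of 293 (15.4%). Ubiquitin ligase and protease genes reached 33 of 210 (15.7%), respiratory chain genes 13 of 89 (14.6%) and splicing genes 7 of 63 (11.1%). Solute carriers lay below, with 18 of 253 (7.11%, 4.27 to 11.0). Most of these intervals include 11.1%, so these shares mostly lie within counting error of it. Pallial neuron genes, which mark the dorsal forebrain, had 0 of 15, which allows a share of up to 21.8%. Peaks of the ribosomal list included Rpl13a, Rpl4, Rplp0, Rps19 and Rps26.

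The strongest promoter-proximal peaks lay at the following genes. Zfp142, a zinc finger gene, had the highest −log10 p, 147, on chr1:74634340-74634970, with the summit 2 bases from the TSS. Xab2, a splicing and DNA repair factor, followed at 117 on chr8:3621178-3621636, then BC052040 and Lass1, a ceramide synthase gene, at 112 each, and Abcf1, a translation factor, at 111. Rps6kb2, a ribosomal S6 kinase gene, had 109, Erh 105, Stt3a, a subunit of the oligosaccharyltransferase, 95, Nhsl2 90.4 and Zfp526 87.1. H3K4me3 and H3K27ac overlapped each of these 10 peaks in both genotypes. Around Zfp142 H3K4me3 covered the whole window in mutant and wild type, and H3K27ac 1769 in the mutant and 1507 in wild type.

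Among distal peaks the highest −log10 p, 198, was on chr1:77528689-77529310, 17.0 kb upstream of the TSS of Epha4, the ephrin receptor gene. H3K27ac covered 1337 bases there in the mutant and 1657 in wild type, and H3K4me3 1110 and 1180. The next were near 2310044G17Rik (166), Cdc42ep4, a Cdc42 effector gene (153), Slc4a3, an anion exchanger gene 941 kb away (136), Ccl1, a chemokine gene (129), Wrn, a helicase gene (126), Fbln2, an extracellular matrix gene (125), Med13, a Mediator subunit gene (123), Cdk5r1, which encodes the activator of Cdk5 in neurons (112) and Melk, a kinase gene (111). All 10 carried H3K4me3, H3K27ac and H3K4me1 in the mutant and, but for H3K27ac at the Ccl1 peak, in wild type. The H3K4me3 cover around Wrn was 1123 bases in the mutant and 440 in wild type, and the H3K27ac cover around Melk 1224 bases and the whole window. The genes nearest to the most distal peaks were Gse1 and Zfp608 with 9 each and Cryba4 and Nrxn3, a synaptic adhesion gene, with 7 each, while Nkx2-1 and Sox2 had 5 each.

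MGE and ventral telencephalic transcription factor genes carried both kinds of peak. Of 34 such genes, all with wild-type H3K4me3 near a TSS, 6 had a promoter-proximal peak (17.6%, 6.76 to 34.5, an interval that includes the 11.1% of all genes with H3K4me3), namely Lhx6, Lmo3, Nkx2-1, Sox6, Sp9 and Tcf12. A further set of distal peaks, 27 in all, lay nearest to 15 of them. H3K27ac was lost at 2 of the 25 distal peaks that carried it, near Sox6 and at Nkx2-1. Within 1 kb it was shorter by at least 500 bases at 5 of 27, near Lhx6, Lhx8, Maf, Nkx2-1 and Sox6, and longer by as much at 2, near Lmo4 and Nkx2-1. The shares over all distal peaks were 12% and 4.01%.

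Values at single peaks of this list varied. The distal Lhx6 peak, 26.4 kb from its TSS inside Morn5, had 923 bases of H3K27ac in the mutant and the whole window in wild type, and 645 and 1656 of H3K4me3. At Lhx8, the LIM homeobox gene of cholinergic neurons, the peak 50.9 kb upstream had 1145 bases of H3K27ac in the mutant and the whole window in wild type, and the one 55.2 kb upstream 1469 and 1658. Sox6, which acts in interneuron positioning, had a peak 403 kb away with 0 bases of H3K27ac in the mutant and 1050 in wild type. Maf, a regulator of interneuron fate, had 893 and 1401 bases at its peak 58.7 kb upstream. Other peaks differed little or the other way. The peaks of the Dlx1 and Dlx6 homeobox genes kept H3K27ac over at least 1801 bases in the mutant and 1892 in wild type. Of the 2 distal peaks near Lmo4, a LIM-only gene, H3K27ac covered 1640 bases in the mutant and 443 in wild type at the one 54.7 kb away, and 1131 and 1176 at the one 162 kb away. The 3 peaks near Zeb2, a repressor gene of migrating interneurons, had 1739 to 1972 in the mutant and 1614 to 1948 in wild type.

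**Figure D5:**
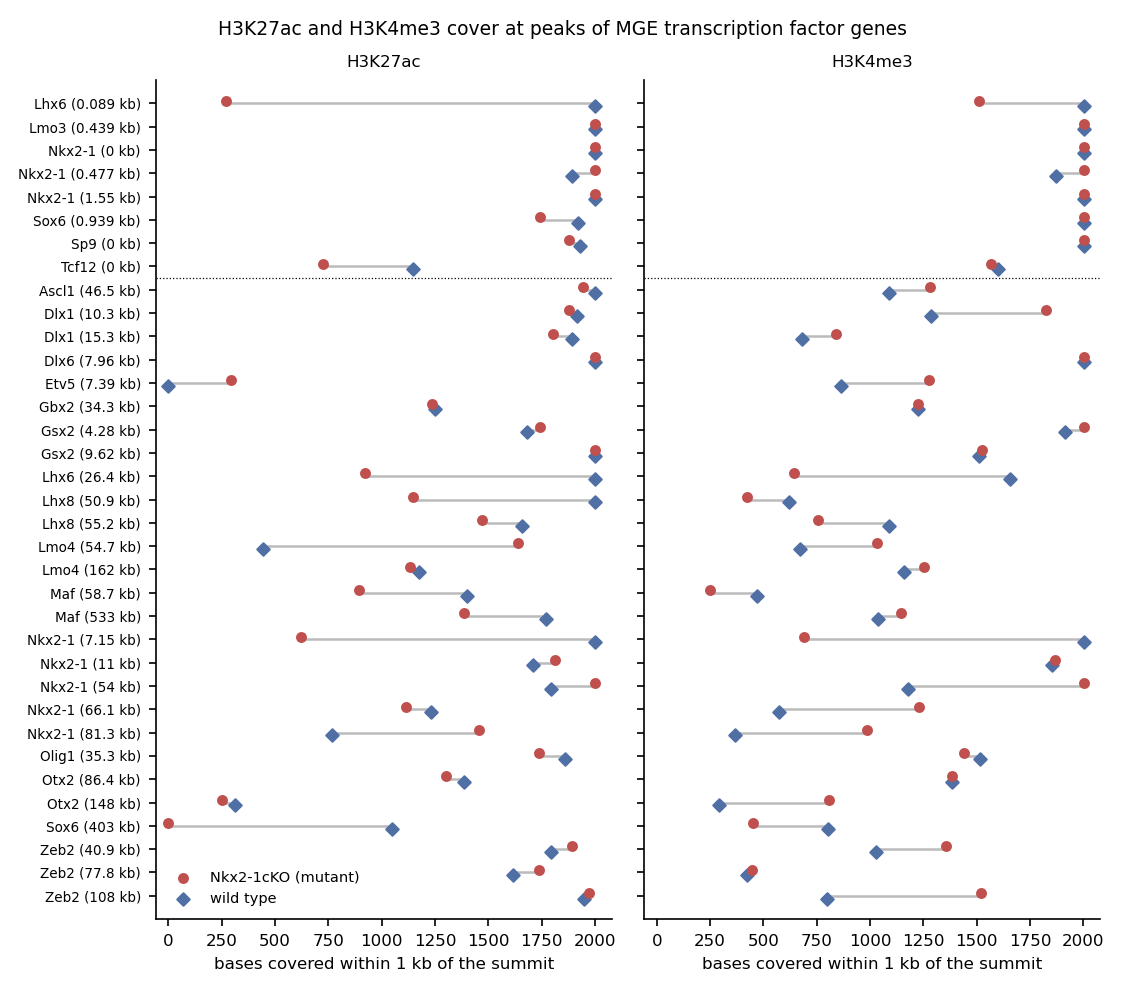
Bases covered by H3K27ac (left) and H3K4me3 (right) within 1 kb of the NKX2-1 summit (horizontal axes) in the mutant (circles) and in wild type (diamonds), for each peak of the MGE transcription factor list. Labels give the listed gene and the distance of the peak to the nearest TSS; promoter-proximal peaks stand above the dotted line. The mutant lies far below wild type in H3K27ac at both Lhx6 peaks (270 and 923 bases, against the whole window at each) and far above it at 1 of the 2 Lmo4 peaks (1640 against 443).

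Nkx2-1 itself held 3 promoter-proximal and 5 distal peaks. The peak over the TSS, on chr12:57637609-57638018, had H3K4me3 and H3K27ac over the whole window in mutant and wild type and H3K27me3 over 1876 and 1813. The distal peak 54.0 kb from the TSS had H3K4me3 over the whole window in the mutant and over 1179 bases in wild type. At 66.1 kb H3K4me3 covered 1230 and 572 bases, and at 81.3 kb 987 and 365. H3K27ac at the peak 81.3 kb away covered 1454 bases in the mutant and 765 in wild type, and at 66.1 kb 1114 and 1230. The mutant thus had more H3K4me3 at these 3 and less of every mark at the peak 7.15 kb away, while the peak 11.0 kb away differed little, with 1865 and 1851 bases of H3K4me3.

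Genes of the neighbouring lateral and caudal eminences, which give rise to striatal neurons and other interneurons, carried mainly distal peaks. Of 26 genes, Meis1 and Meis2 had promoter-proximal peaks (7.69%, 0.946 to 25.1), and 16 were nearest to 24 distal peaks. H3K27ac was longer in the mutant by at least 500 bases at 6 of the 24, among them peaks near Ebf1, Foxp1, Foxp2, Foxp4 and Tle4, and shorter at 3, near Rxrg and Sp8, where 4.01% of all distal peaks were longer and 12% shorter. Median cover was 1532 bases in the mutant and 1320.5 in wild type for these peaks and 1469 and 1708 for the MGE list. Near Foxp2, a forkhead gene of striatal neurons, H3K27ac covered the whole window in the mutant and 1157 bases in wild type. The peak 187 kb from Sp8, a zinc finger gene of the dorsal lateral eminence, had 0 bases of H3K27ac in the mutant and 889 in wild type, and H3K27me3 over the whole window and 1003 bases. At the Meis2 promoter-proximal peak H3K4me3 covered the whole window in the mutant and 1542 bases in wild type. With 24 and 27 peaks from 1 library per genotype, this difference between lists was not tested.

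Pallial genes had distal peaks but no promoter-proximal one. Of 8 distal peaks nearest to 7 such genes, 2 lost H3K4me3 and 2 of 7 lost H3K27ac, where 9.81% and 6.46% of all distal peaks did. With so few peaks these counts are not read as particular to the list. Median H3K27ac cover was 459.5 bases in the mutant and 1138 in wild type. Near Neurog1, a proneural gene, 1 of the 2 peaks lost H3K4me3 and H3K27ac, with 376 and 432 bases in wild type. Near Eomes, a gene of intermediate progenitors, H3K27ac covered 423 and 1038 bases.

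Signalling genes had peaks of both kinds. In the Sonic hedgehog list, Gli2, a transcription factor of the pathway, had the only promoter-proximal peak of 13 genes, with a −log10 p of 68.6 and the summit 4 bases from the TSS. H3K4me3 there covered 1795 bases in the mutant and 976 in wild type, and H3K27me3 0 and 671. Distal peaks lay nearest to the receptor and co-receptor genes Ptch1, Cdon and Boc and to Sufu and Gli3. The Ptch1 peak shown above had H3K4me3 over the whole window in the mutant and 1863 bases in wild type, and the other Ptch1 peak had 1440 and 665 bases of H3K27ac. Of 19 Notch genes with wild-type H3K4me3 near a TSS, 4 had a promoter-proximal peak (21.1%, 6.05 to 45.6, which includes the 11.1% of all such genes), the receptor Notch1, the ligand Dll3, the ubiquitin ligase Mib1 and the nuclear effector Rbpj. The 6 distal peaks of that list, near Maml3, Notch2, Hes5 and Notch1, all kept H3K4me3 and H3K27ac, with a median H3K27ac cover of the whole window in both genotypes. Of 21 such WNT and BMP genes 2 had a promoter-proximal peak, Fzd1 and Tcf7l1 (9.52%).

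Distal peaks also lay near genes of progenitors, migration and chromatin. Sox2 was nearest to 5 distal peaks and Sox9, Nes, Hes5, Cdkn1c and Mki67 to others, and among these 12 peaks 1 lost H3K4me3 and 1 of the 11 with H3K27ac lost that mark, against 9.81% and 6.46% of all distal peaks. The H3K27ac loss was near Mki67, with 0 bases in the mutant and 850 in wild type. In the axon guidance list 6 of 40 genes had a promoter-proximal peak (15%, 5.71 to 29.8), among them Epha3, Epha4, Epha7 and Plxna2. The promoter-proximal Epha4 peak, on chr1:77512743-77513182, had H3K4me3 and H3K27ac over the whole window in both genotypes. The 25 distal peaks of that list included 1 with shorter and 1 with longer H3K27ac, at Sema6d and Robo1. Near Robo1, an axon guidance receptor gene, H3K27ac covered 1545 bases in the mutant and 1002 in wild type. Among chromatin genes 7 of 37 had a promoter-proximal peak (18.9%, 7.96 to 35.2), and both intervals include 11.1%. The 7 chromatin genes included the H3K4 methyltransferase gene Setd1a, the H3K27 demethylase gene Kdm6b and the remodeller genes Arid1a, Chd2 and Chd3. Near Tiam1, a Rac exchange factor gene, H3K27ac covered 270 bases in the mutant and 1315 in wild type, and near Pdgfra, a receptor gene of oligodendrocyte precursors, 583 and 1914.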

How the data were processed

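NKX2-1 and LHX6 binding and 4 histone marks were read from 10 deposited peak lists of 20 libraries; the other 10, inputs and control immunoglobulin, were not analysed here. Per the submitters' processing notes, the tools were BWA 0.6.2, MACS2 2.1.0, bcl2fastq 1.8.4 and CASAVA 1.8.2, on build mm9. MACS 2.1.0.20140616 made the lists from merged alignment files at a p of 1e-05, per the file headers; it kept 1 tag per position, extended tags to 250 bases, called summits and had its local background switched off. The pileup, the authors' tag coverage at the summit, is not scaled between libraries. The fold enrichment the authors deposited was in each list the pileup over a single genome-wide background, so no local input correction entered it. The −log10 p the authors deposited follows from the same background. The column of q-values was not used.

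Rows with the same interval were merged into 1 peak, and summits on chromosomes 1 to 19 and X were kept. TSSs (45939, of 22342 protein-coding genes) came from GENCODE vM1 on NCBIM37, the same build as mm9, and distances were taken from the edge of the peak. A peak carries a mark where a region overlaps it by at least 1 base. Covered length is counted within 1 kb of the summit. Python 3.11.15, pandas 2.3.3, scipy 1.17.1 and samtools 1.23.1 were used, and overlap, coverage and motif counting were tested on simulated data. Named peaks are the 10 strongest of each position, up to 8 of each kind of change by NKX2-1 strength, and the strongest of each gene list; genes given with a count were named after their values were seen. The members and the gene lists were chosen with earlier results of these data known. Alternatives varied the overlap, the distance to a TSS, the peak threshold, the covered length of the lists and the motif window. Results at a few genes are not reported here.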

Additional observations from a re-analysis of the deposited data

How the results depend on the processing

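Over 18 results and 83 alternatives, 58 values stayed within the band set for them and 25 moved beyond it. For shares the band was the counting interval, and for differences between regions it was taken from the interval's width. For counts of peaks and genes it was a wider fold band, which held all of them. The count of chosen peaks, for example, fell from 3051 to 2498 with a −log10 p of at least 10. Neither difference between regions, taken over all quartiles, changed sign in these alternatives. With the mutant list of each mark cut to the covered length of the wild-type list (for H3K4me3 at a −log10 p of 34.9), H3K4me3 was lost at 1.45% of promoter-proximal and 47.0% of distal peaks, H3K27ac at 9.17% of distal peaks, H3K27me3 was gained at 1.24% of distal peaks, and H3K27ac was shorter at 13.9% of distal peaks. The share of H3K4me3 regions lost with a peak minus that without was then -6.44 percentage points promoter-proximal and 8.04 distal, against -0.56 and 4.53 as reported. The cut keeps 23891 of 43648 mutant H3K4me3 regions, which by its construction raises the losses of weak regions. When 50% of the peak had to be covered, H3K27ac was lost at 2.07% and H3K4me1 at 20.5% of promoter-proximal peaks, H3K4me1 at 2.78% of distal peaks, H3K27me3 was gained at 0.963% of promoter-proximal peaks, and the distal H3K4me3 difference was 6.84 points. When a region within 1 kb counted, H3K27ac was lost at 0.149% of promoter-proximal and 5.23% of distal peaks, H3K4me1 at 0.260% and 0.989%, H3K27me3 was gained at 0.372% and 1.05%, and the promoter-proximal H3K4me3 difference was -0.0138 points. With regions of a −log10 p of at least 10, H3K4me1 was lost at 3.63% and H3K27me3 gained at 1.97% of distal peaks. An NK2 core was found at 10.6% of promoter-proximal and 15.6% of distal peaks in 100 bases and at 17.9% and 27% in 400 bases. The distance taken from the summit was an alternative added after seeing the data. No paired analysis was possible because each antibody and genotype has 1 library. A presence call depends on library depth and on the threshold of the list, and as reported all lost H3K4me3 regions lay in the 2 weaker quartiles of the wild-type list.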
